A study of Mus musculus with 12 samples.

Results

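Peroxisomes are organelles that shorten very long and branched fatty acids by beta- and alpha-oxidation, carry the first steps of ether lipid synthesis and destroy hydrogen peroxide with catalase. Peroxins (the Pex proteins) build them: membrane peroxins insert the boundary proteins, receptors carry enzymes from the cytosol, a docking complex lets them in, and a ring of ligases with a pair of ATPases sends the receptors back. The peroxisome proliferator-activated receptors (PPARs) are named for compounds that multiply this organelle in rodent liver, and rosiglitazone is a ligand of PPARγ, the form that drives adipocyte differentiation. Transcripts of 34 peroxisome genes, out of 31053 genes in the tables, were examined in cells of the stromal vascular fraction (SVF) of mouse white fat. The genes were taken as listed by name and function: 13 peroxins (Pex2, Pex3, Pex5, Pex6, Pex7, Pex10, Pex11a, Pex11g, Pex13, Pex14, Pex16, Pex19 and Pex26), 6 genes of the beta-oxidation cycle (Acox3, Ehhadh, Hsd17b4, Acaa1a, Acaa1b and Scp2), 4 auxiliary enzymes (Ech1, Eci2, Decr2 and Crat), catalase (Cat), 2 genes of alpha-oxidation and racemisation (Phyh and Amacr), 3 genes of ether lipid synthesis (Gnpat, Agps and Far1) and 5 membrane proteins (Abcd2, Abcd3, Abcd4, Pxmp2 and Pxmp4). All 34 were present in the tables of the 12 libraries.

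Single-cell RNA sequencing was carried out on epididymal (eWAT) and inguinal (iWAT) white adipose tissue, with 2 libraries per depot in each of 3 groups. All mice were 12-week-old males gavaged every morning and evening for 3 days. WT-Veh mice were lean C57BL/6J animals given methylcellulose vehicle, ob/ob-Veh mice were leptin-deficient Lepob/Lepob animals given the same vehicle, and ob/ob-Rosi mice were Lepob/Lepob animals given rosiglitazone at 30 mg/kg. No lean mice given rosiglitazone were sequenced, so the drug was read against obese vehicle mice alone. Fat was cut from several sites of each depot and digested with collagenase, and floating adipocytes were removed, so that mature adipocytes, the cells with most of the PPARγ of the tissue, were not sampled as cells.

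The 6 eWAT libraries held 40933057 to 92475986 UMIs (unique molecular identifiers, 1 per captured RNA molecule) and the 6 iWAT libraries 20132553 to 66818914 over all deposited barcodes, of which 126095 were kept as cells after filtering. Of 123996 distinct cell barcodes, 2066 occurred in more than 1 library. The largest excesses over the number expected from the barcode pool were 94 against 25.3 (eWAT ob/ob-Veh 1 with iWAT ob/ob-Rosi 1) and 99 against 46.0 (eWAT ob/ob-Rosi 1 with iWAT WT-Veh 1). Other pairs of libraries lay on both sides of the expected number, and the cause was not tested. Clusters were named from marker genes, and a class was tested where each of the 6 libraries of a depot held at least 20 of its cells. That gave 10 classes in eWAT (preadipocyte-like and progenitor-like adipocyte progenitors, mesothelial-like cells, endothelial-like cells or EC, perivascular macrophage-like PVM, non-perivascular macrophage-like NPVM, other macrophage-like cells, NKT-like, BC-like and DC-like cells) and 8 in iWAT, where lipid-associated macrophage-like LAM were tested and the mesothelial, macrophage and DC classes were not. LAM-like cells of eWAT were not tested because the ob/ob-Veh libraries held 9 and 14 of them. The WT-Veh libraries held 1562 and 590 of these cells and the ob/ob-Rosi libraries 932 and 1417. The ob/ob-Veh cells of some classes clustered apart from those of the other groups: eWAT PVM and preadipocyte cells and iWAT PVM and progenitor cells came mainly from clusters of their own. Of the eWAT progenitor cells 1385 of 2284 in ob/ob-Veh 1 and 480 of 1015 in ob/ob-Veh 2 did so. Among the other iWAT PVM cells replicate 1 and replicate 2 libraries held separate clusters. Of the iWAT EC, WT-Veh 1 held 1981 of 2265 in 1 cluster and WT-Veh 2 held 934 of 1163 in another, both with few ob/ob cells. The ob/ob mutation leaves a Lep transcript, so the labels were checked only loosely by the ratio of Lep to Adipoq UMIs over the cells of named classes, which was 31.6 to 78.0 per 100 in WT-Veh, 3.57 to 36.4 in ob/ob-Veh and 141 to 353 in ob/ob-Rosi, from 11 to 263 Adipoq UMIs per library and, in ob/ob-Veh, 4 to 32 Lep UMIs. This ratio settles no label, and the labels were taken as given. One iWAT library, WT-Veh 1, was shallow, with a median of 1132 UMIs per cell and 47.3% of its cells in an unnamed cluster, and the iWAT ob/ob-Veh cells had the highest median share of mitochondrial UMIs (8.07% and 9.05%, against 2.17% to 5.89% in the other iWAT libraries).

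Ech1, Eci2, Far1 and Pex6 were called different between groups in both depots, and the annotation places them on GRCm38 at Ech1 (ENSMUSG00000053898, chr7:28825217-28832247, plus strand), Eci2 (ENSMUSG00000021417, chr13:34977748-35027096, minus strand), Far1 (ENSMUSG00000030759, chr7:113513834-113571511, plus strand) and Pex6 (ENSMUSG00000002763, chr17:46711463-46725541, plus strand). All 4 are protein-coding genes. Promoters, taken as 250 bases before to 50 bases after the RefSeq transcript start on GRCm38.p6, were found for 26 of the 34 members. The direct repeat of AGGTCA spaced by 1 base, the textbook binding sequence of PPAR with its partner RXR, was searched on both strands and lay in 0 of the 26 member promoters and in 0.0396% of 32851 mouse promoters. With so low a share, 0 of 26 cannot set the members apart from other promoters. Inexact repeats and sites outside these promoters were not searched. A single AGGTCA lay in 4 of the 26 (Cat, Pex11g, Phyh and Scp2), against 16.3% of all promoters. The GC box GGGCGG, a binding sequence of Sp factors, lay in 21 of the 26, against 35.7% of all promoters, and CCAAT lay in 11 of the 26, against 37.4%. The windows of 30 bases around the GC box nearest the start of the 4 genes are shown 5′ to 3′ because these genes carry most of the differences below, with GGGCGG or its reverse complement in capitals.
Ech1, chr7:28825295-28825324, plus strand: gaacgttcgtgcCCGCCCcctaagtttttc
Eci2, chr13:34994117-34994146, minus strand: gcacctctggctCCGCCCcttcccggtctt
Far1, chr7:113513842-113513871, plus strand: gcagccggtcggGGGCGGtgaaaagcgagt
Pex6, chr17:46711443-46711472, plus strand: cccggactttttCCGCCCcctatttccgga
A match is a run of letters in this window and not evidence that a factor binds there.

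Levels were expressed as CPM, the UMIs of a gene per 1000000 UMIs of all cells of a class in a library. The libraries are of the 3′ type, in which a molecule is counted once whatever its length. The member with the highest level was Scp2 (sterol carrier protein and, in its long form, the last thiolase of branched fatty acid oxidation), at a mean of 188 CPM over the eWAT classes and 155 CPM over the iWAT classes. It made up 17.4% and 15.1% of the summed level of the 34 genes. Ech1 followed in eWAT with 128 CPM (11.8%), ahead of Cat (72.7 CPM), Far1 (70.1 CPM), Eci2 (55.2 CPM), Acaa1a (50.4 CPM) and Hsd17b4 (49.0 CPM). In iWAT Far1 (99.1 CPM), Ech1 (87.6 CPM) and Cat (75.0 CPM) followed, ahead of Hsd17b4 (44.5 CPM) and Eci2 (40.7 CPM). The place of Far1 before Ech1 in iWAT came from ob/ob-Veh, where the class means were 154 and 142 CPM for Far1 and 34.6 and 43.3 CPM for Ech1, and from WT-Veh 1, while Ech1 was the higher in the 3 other libraries. At the other end were Acaa1b (0.557 and 0.691 CPM), Ehhadh (1.82 and 2.36 CPM) and Pex10 (3.04 and 3.35 CPM), with Pxmp2 (2.80 CPM) below Pex10 in iWAT. Acaa1a and Acaa1b are near-identical copies, and how the counting shared reads between them is uncertain.

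**Figure D1:**
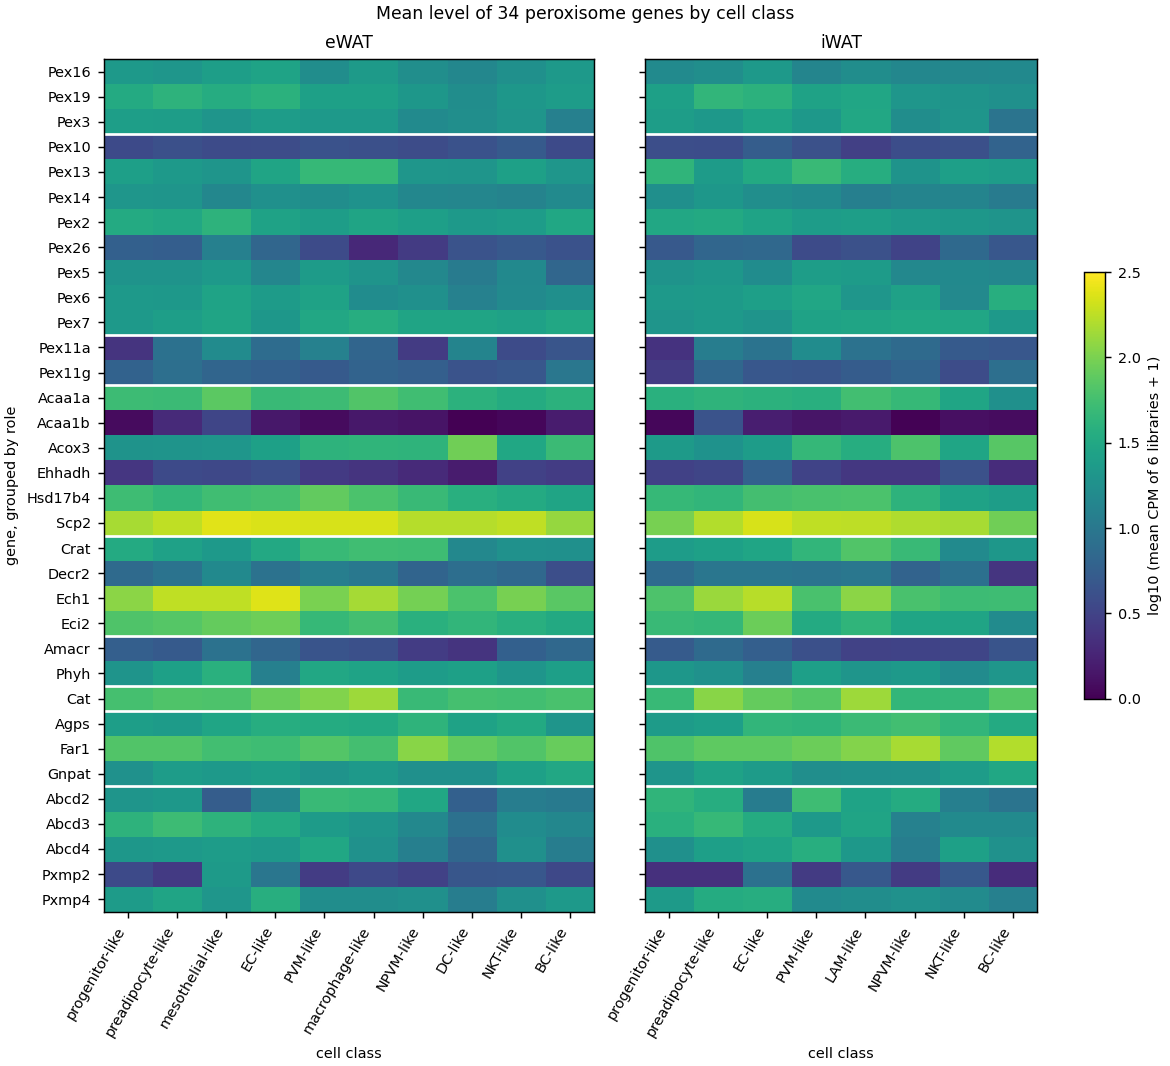
Heatmap of the level of the 34 peroxisome genes (rows, grouped by role) in each tested class of eWAT and iWAT (columns); colour gives log10 of the mean CPM of 6 libraries plus 1. Scp2, Ech1, Cat and Far1 had the highest means over the classes of both depots, and Acaa1b and Ehhadh the lowest.

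The members differed in which class held most of them. Ech1 and Eci2, isomerases that move double bonds so that unsaturated fatty acids can enter the cycle, were at their highest in EC of both depots: Ech1 averaged 235 CPM, range 148 to 381 CPM in eWAT EC over 6 libraries against 61.4 CPM in DC, and Eci2 88.7 CPM, range 55.9 to 162 CPM against 32.2 CPM in BC. Cat was highest in the macrophage class of eWAT (136 CPM, range 110.1 to 173 CPM) and in LAM of iWAT (135 CPM, range 94.7 to 176 CPM), and lowest in NPVM of both depots (48.3 CPM and 44 CPM). In eWAT the macrophage and NPVM ranges of Cat (39.7 to 57.2 CPM in NPVM) did not overlap. Far1, the reductase that supplies fatty alcohols for ether lipids, was highest in eWAT NPVM (112 CPM, range 69.9 to 175 CPM), where Cat was lowest. In iWAT it was highest in BC (163 CPM, range 71.1 to 287 CPM), where Cat was not lowest.

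The membrane transporters split by cell type. Abcd2, which carries very long chain acyl-CoA into the peroxisome, was highest in PVM of both depots (48 CPM, range 28.8 to 68.1 CPM in eWAT and 51.5 CPM, range 32.4 to 71.3 CPM in iWAT) and stood at 4.43 CPM in mesothelial cells. Abcd3, the transporter of branched and dicarboxylic acyl-CoA, was highest in preadipocytes (51 CPM, range 42.5 to 65.3 CPM in eWAT and 46.4 CPM, range 38 to 56.1 CPM in iWAT), above the DC range of 2.65 to 17.9 CPM in eWAT. Abcd4, which carries cobalamin in lysosomes, was highest in PVM (29.5 CPM and 35.9 CPM). The channel protein Pxmp2 was highest in eWAT mesothelial cells (21.8 CPM, range 10.2 to 39.2 CPM) and Pxmp4 in EC (36 CPM and 35.1 CPM). Acox3, an acyl-CoA oxidase for branched fatty acids, was highest in eWAT DC (89.4 CPM, range 49.5 to 129 CPM) and in iWAT BC (69.5 CPM, range 38.2 to 106 CPM). For each of Ech1, Eci2, Cat, Far1, Abcd2, Abcd3, Abcd4, Pxmp2, Pxmp4 and Acox3, the range over 6 libraries of the leading class named here overlapped that of the next class, so the leading place is an order of means.

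Summed over the 34 genes, the eWAT classes ran from 839 ± 120 CPM (SD, n = 6 libraries) in BC to 1282 ± 189 CPM in EC, 1275 ± 86.1 CPM in macrophages and 1272 ± 97.6 CPM in mesothelial cells. The 3 leading classes did not differ beyond their spread. In iWAT the sum ran from 795 CPM in NKT to 1234 ± 262 CPM in EC and 1218 CPM in LAM. BC and NKT were among the 3 lowest classes in both depots. The lead of EC in iWAT came from WT-Veh 2 (1739 CPM), and EC lay below LAM in 4 of 6 libraries.

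**Figure D2:**
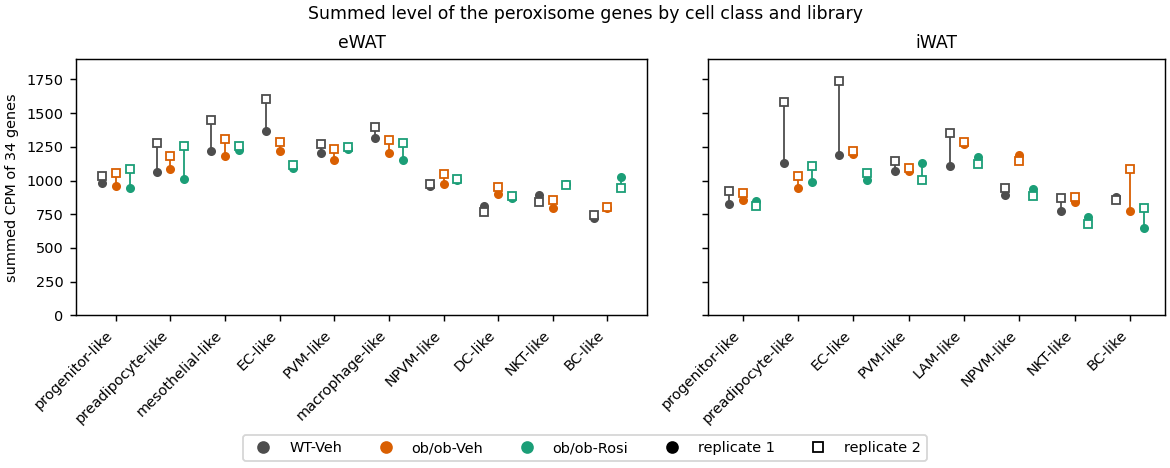
Summed level of the 34 peroxisome genes in CPM for each tested class and library of eWAT and iWAT, with a filled circle for replicate 1 and an open square for replicate 2, joined by a line. Colours mark the 3 groups. In eWAT the mean of the 6 libraries ran from 839 CPM in BC to 1282 CPM in EC.

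The first question was how obese vehicle mice differed from lean vehicle mice. In ob/ob-Veh the fatty acid isomerase Ech1 was lower than in WT-Veh in 5 eWAT classes (log2 changes from -2.01 to -1.25) and 4 iWAT classes (-2.62 to -1.71). The peroxin ATPase Pex6 and the ether lipid gene Far1 were higher in 1 class of each depot, by 1.14 to 1.52. Eci2 and Pex11a were lower in eWAT EC, Pex13 in iWAT LAM and Acaa1b in iWAT preadipocytes, and the other 27 members gave no call. Pex11a and Acaa1b passed the filter on low counts there through WT-Veh alone, so they had to differ to be tested. Their calls are descriptions, and the counts below include them. Each class was tested per depot on summed UMIs of a library with edgeR's quasi-likelihood test (n = 2 libraries per group, Benjamini-Hochberg adjustment over all genes of the class, changes given as log2 with TMM scaling), and a gene in a class, or pair, counted as called when its adjusted p did not exceed 0.05 and it differed by 1.1-fold or more. In eWAT 9 of 265 member pairs were called (3.40%), 2 higher and 7 lower in ob/ob-Veh, against 3.93% of all gene and class pairs (1.72% higher and 2.2% lower). In iWAT 8 of 224 were called (3.57%), 2 higher and 6 lower, against 3.51% of all pairs (1.72% higher and 1.79% lower). The calls lay in few genes: 5 members in eWAT (Ech1, Eci2, Pex11a, Pex6 and Far1) and 5 in iWAT (Ech1, Far1, Pex6, Pex13 and Acaa1b). The median log2 change of the member pairs was -0.09 in eWAT and -0.19 in iWAT, beside class medians over all genes from -0.08 to 0.03 and from -0.10 to 0.06, and it was -0.18 in iWAT with 3 pairs that had a group at 0 set to their bound. At an unadjusted p under 0.05 there were 40 member pairs in eWAT (15.1%, against 20.1% of all pairs) and 33 in iWAT (14.7%, against 20.7%). Those member medians turned to 0.03 and 0.04 when libraries were scaled by size alone, which moved the median of all genes by -0.54 to 0.42 depending on the class and comparison, and by over 0.1 in 30 of 54 fits. In sums over a class, a change within cells and another mix of cell states cannot be told apart. Without ob/ob-Veh 1 no member pair was called in either depot, and without ob/ob-Veh 2 the counts were 1 and 0, while they reached 18 in eWAT without ob/ob-Rosi 1 and 25 in iWAT without WT-Veh 1. Without a filter on low counts they were 17 and 19, so no order of the member shares and the background is read.

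Rosiglitazone was then read against obese vehicle mice. Ech1 rose in 1 eWAT class and 3 iWAT classes, with log2 changes from 1.12 to 2.25, and Eci2 and Scp2 rose in 1 iWAT class each. Pex6 fell in 2 iWAT classes, Far1 in 1 iWAT class and Abcd2 in 1 eWAT class. In eWAT 2 of 265 member pairs were called (0.755%), 1 in each direction, against 3.59% of all pairs (2.05% higher and 1.54% lower in ob/ob-Rosi). In iWAT 8 of 224 were called (3.57%), 5 higher and 3 lower, against 5.72% of all pairs (3.28% higher and 2.43% lower). In both depots the member count fell to 0 without either ob/ob-Veh library or ob/ob-Rosi 2, and it reached 16 in eWAT without ob/ob-Rosi 1 and 23 in iWAT without WT-Veh 1. DESeq2 called 4 and 13 member pairs and edgeR without a filter on low counts 7 and 16, and the shares are not ranked here either. Median log2 changes were 0.05 and 0.06 for the member pairs, beside class medians over all genes from -0.06 to 0.08 and from -0.13 to 0.05, and became -0.04 and -0.20 with library size scaling. Both comparisons use the same ob/ob-Veh libraries, so a high or low value there enters both with opposite sign, and values of all 3 groups are given together below. Over both comparisons and depots 27 pairs of 9 members were called: Ech1, Eci2, Pex6, Far1, Pex11a, Pex13, Scp2, Abcd2 and Acaa1b. The calls of Pex11a and Acaa1b among them are descriptions, since both passed the filter on low counts through WT-Veh alone. With 2 libraries against 2 the smallest exact permutation p for a single value is 0.33, so all p-values rest on the spread shared across genes and on 3 residual degrees of freedom.

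**Figure D3:**
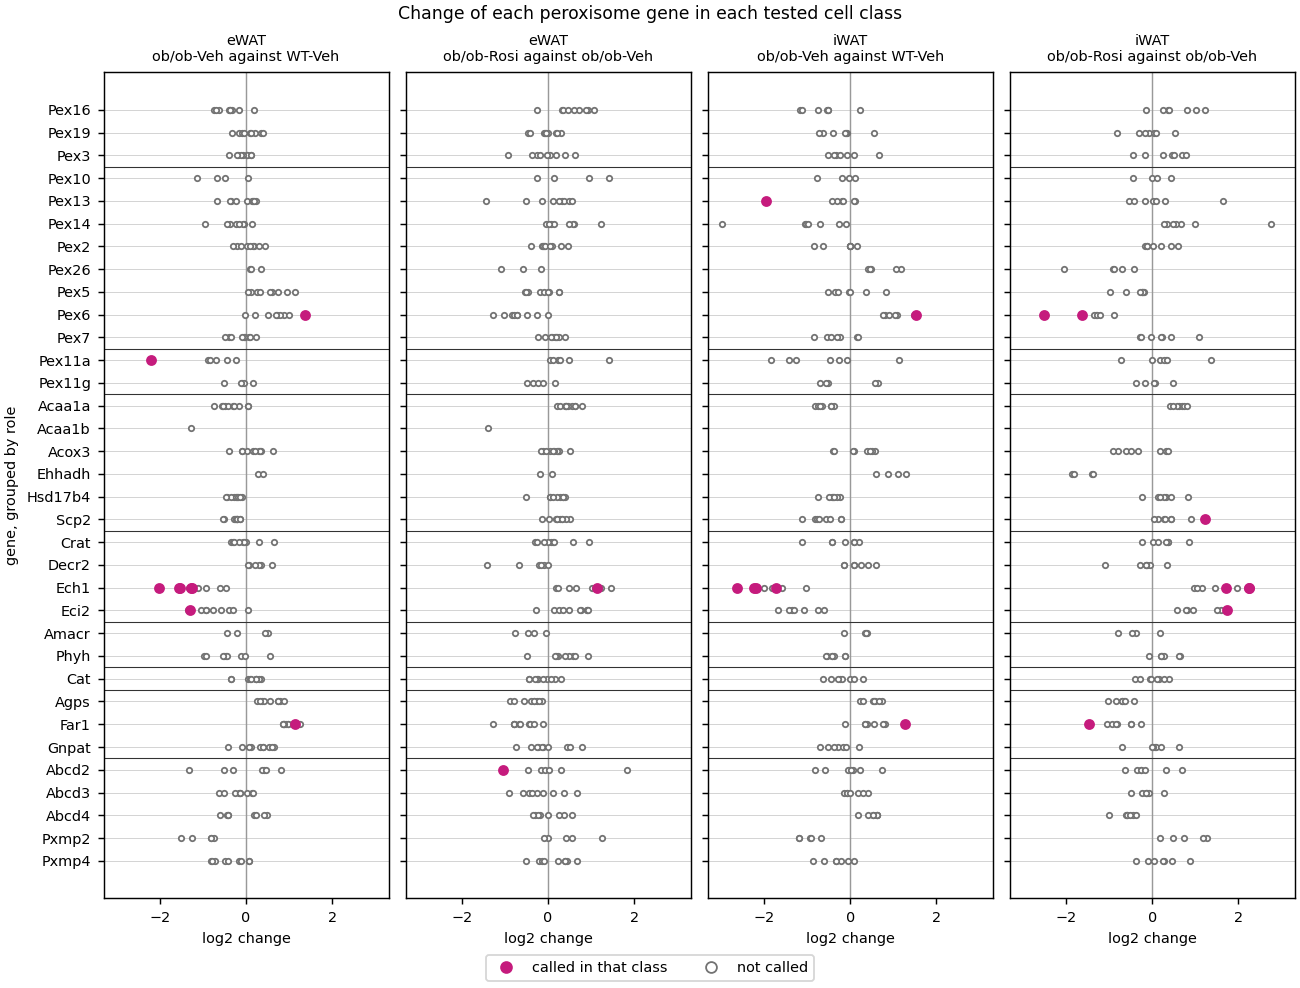
Fitted log2 change of each peroxisome gene (rows) in each class where it was tested (points), for ob/ob-Veh against WT-Veh and ob/ob-Rosi against ob/ob-Veh in eWAT and iWAT; filled magenta points passed the adjusted p and fold thresholds, and pairs with a group at 0 UMIs are left out. Ech1 lay below 0 in every class in the first comparison and above 0 in every class in the second, and Far1 and Agps lay mostly on the opposite sides.

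Ech1, the dienoyl-CoA isomerase found in peroxisomes and mitochondria, made up 13 of the 27 calls. In eWAT macrophages it stood at 208 and 236 CPM in WT-Veh, 43.7 and 74.4 CPM in ob/ob-Veh and 117 and 188 CPM in ob/ob-Rosi. The ob/ob-Veh values came from 8 and 37 UMIs in 59 and 81 cells, against 1202 to 3484 cells of this class in the other libraries. In eWAT NPVM the values were 123 and 137 CPM in WT-Veh, 48.6 and 49 CPM in ob/ob-Veh and 87.3 and 113 CPM in ob/ob-Rosi. In both classes the 2 ob/ob-Veh libraries were the lowest, with no overlap with either other group. Ech1 fell in ob/ob-Veh, with a log2 change of -2.01 ± 0.35 (SE, edgeR adjusted p = 0.0105) in macrophages and -1.53 ± 0.27 (SE, edgeR adjusted p = 0.00592) in NPVM. It rose with rosiglitazone in NPVM, by 1.12 ± 0.26 (SE, edgeR adjusted p = 0.0213), while the macrophage change of 1.46 ± 0.35 (SE, edgeR adjusted p = 0.0737) did not pass the threshold. PVM held 125 and 129.9 CPM in WT-Veh, 56.8 and 56.2 CPM in ob/ob-Veh and 83.9 and 135 CPM in ob/ob-Rosi, and NKT cells 140.3 and 122 CPM in WT-Veh, 36.5 and 68.2 CPM in ob/ob-Veh and 87.3 and 118 CPM in ob/ob-Rosi. Both again had their lowest values in ob/ob-Veh, without overlap, and their log2 changes against WT-Veh were -1.28 ± 0.26 (SE, edgeR adjusted p = 0.031) and -1.55 ± 0.34 (SE, edgeR adjusted p = 0.0193). EC differed in the rosiglitazone arm: Ech1 stood at 349 and 381 CPM in WT-Veh, 157 and 169 CPM in ob/ob-Veh and 148 and 209 CPM in ob/ob-Rosi. Its fall from WT-Veh to ob/ob-Veh was -1.25 ± 0.27 (SE, edgeR adjusted p = 0.0156), the ob/ob-Rosi values overlapped those of ob/ob-Veh, and the change with the drug was 0.19 ± 0.26 (SE, edgeR adjusted p = 0.731). Over all 10 eWAT classes the log2 change in ob/ob-Veh was below 0 in 10 (-2.01 to -0.47, median -1.26) and the change with rosiglitazone above 0 in 10 (0.19 to 1.46, median 1.05), also with library size scaling. Classes of a depot come from the same libraries and are not independent. Each eWAT call was lost when either ob/ob-Veh library was left out, the EC, NKT and PVM calls also without either WT-Veh library and the NPVM call with rosiglitazone also without ob/ob-Rosi 2, where the highest adjusted p ran from 0.0806 in NPVM to 0.321 in NKT while the log2 changes kept their sign.

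In iWAT the same gene was called in 4 classes. In LAM it stood at 124 and 219.9 CPM in WT-Veh, 28.5 and 55.6 CPM in ob/ob-Veh and 121 and 143 CPM in ob/ob-Rosi, where the ob/ob-Veh libraries held 58 and 25 cells with 7 and 6 UMIs of Ech1. In iWAT NPVM the values were 60.3 and 94.5 CPM in WT-Veh, 26.4 and 17.6 CPM in ob/ob-Veh and 69.9 and 88.5 CPM in ob/ob-Rosi, and in PVM 59.8 and 91.7 CPM in WT-Veh, 28.2 and 25.6 CPM in ob/ob-Veh and 67.6 and 84.6 CPM in ob/ob-Rosi. The 2 ob/ob-Veh libraries were the lowest of the 6 in all 3 classes, and WT-Veh and ob/ob-Rosi overlapped. The fall in ob/ob-Veh was -2.62 ± 0.47 (SE, edgeR adjusted p = 0.00685) in LAM, -2.23 ± 0.42 (SE, edgeR adjusted p = 0.0233) in NPVM and -1.71 ± 0.31 (SE, edgeR adjusted p = 0.0219) in PVM. The NPVM change was -1.61 without WT-Veh 2. With rosiglitazone Ech1 rose by 2.25 ± 0.47 (SE, edgeR adjusted p = 0.012), 2.24 ± 0.41 (SE, edgeR adjusted p = 0.0101) and 1.71 ± 0.31 (SE, edgeR adjusted p = 0.0236) in these classes. Preadipocytes held 138 and 321 CPM in WT-Veh, 50.9 and 50.7 CPM in ob/ob-Veh and 96.7 and 129 CPM in ob/ob-Rosi. There it fell, with a log2 change of -2.17 ± 0.39 (SE, edgeR adjusted p = 0.0392) with a wide gap between the 2 WT-Veh libraries and a change of -1.43 without WT-Veh 2, and the change with the drug was 1.15 ± 0.38 (SE, edgeR adjusted p = 0.125). All 8 iWAT classes lay below 0 in ob/ob-Veh (median -1.90) and above 0 with rosiglitazone (median 1.58), under library size scaling too. Every iWAT call of Ech1 was lost without either ob/ob-Veh library, the NPVM call against WT-Veh also without WT-Veh 2 and the calls with the drug also without ob/ob-Rosi 2, with adjusted p up to 0.413 in preadipocytes and up to 0.266 elsewhere.

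**Figure D4:**
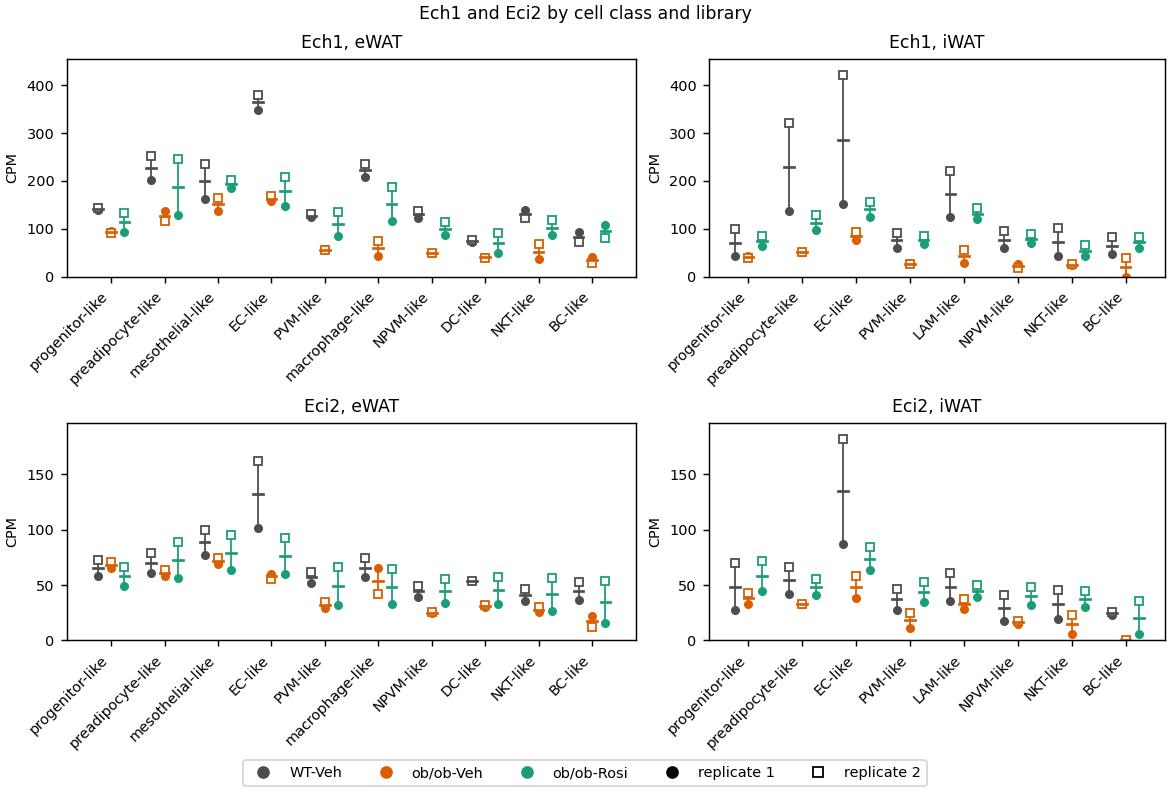
Level of Ech1 and Eci2 in CPM in each class and library of eWAT and iWAT, with a filled circle for replicate 1, an open square for replicate 2 and a short bar for the mean of a group. In eWAT macrophages the Ech1 levels of ob/ob-Veh (43.7 and 74.4 CPM) lay under those of WT-Veh (208 and 236 CPM), with ob/ob-Rosi between them.

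Other measures moved with these values. The summed level of 12 dissociation-response genes (immediate early and heat shock genes) was higher in ob/ob-Veh than in both other groups in eWAT NPVM (10245 to 12607 CPM, against 4737 to 6672 CPM), eWAT NKT (9236 to 10058 against 3940 to 5320 CPM), eWAT PVM (22139 to 28612 against 13871 to 17619 CPM), iWAT NPVM (13304 to 14881 against 5119 to 7558 CPM) and iWAT LAM (10891 to 11068 against 4711 to 6950 CPM), all 12 genes being detected in each of these libraries. In eWAT macrophages this sum was 10320 to 11527 CPM in ob/ob-Veh, against 7155 to 9740 CPM. In iWAT PVM, where Ech1 differed as well, the 3 groups overlapped on this list (16700 to 21283 CPM). RNA of adipocytes, as the sum of 12 adipocyte genes, was highest in ob/ob-Veh in eWAT EC (1506 to 2003 CPM, against 160 to 226 CPM, 11 of 12 genes detected and Cidea at 0 in every group) and in eWAT PVM (113 to 130 CPM, against 21.5 to 27.6 CPM). In eWAT macrophages it was 142 to 165 CPM in ob/ob-Veh, where Plin1, Lep, Cidea and Nnat were at 0, against 25.1 to 34.1 CPM. In iWAT preadipocytes it was highest in WT-Veh (631 to 848 CPM, against 138 to 178 CPM in ob/ob-Veh, where Lep, Retn, Adig and Cidea were at 0, and 94.3 to 119 CPM in ob/ob-Rosi). In iWAT LAM of ob/ob-Veh 8 of the 12, with Adipoq, Plin1 and Lep among them, were at 0. The median share of mitochondrial UMIs was also highest in ob/ob-Veh in iWAT PVM (10.9% and 9.75%, against 2.28% to 8.17%). In iWAT LAM it was 13.3% and 10.1%, against 2.29% to 7.37%. In iWAT NPVM it was 12.9% and 11.6% in ob/ob-Veh, 12.3% in WT-Veh 1 and 1.94% to 3.72% elsewhere. In eWAT macrophages, NPVM and NKT, ob/ob-Rosi 1 (6.63%, 7.51% and 8.18%) overlapped or passed ob/ob-Veh. The part of dissociation, of adipocyte RNA and of this share in the differences of the members was not tested.

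Eci2, the enoyl-CoA isomerase that acts beside Ech1, had a like order of groups at lower levels. In eWAT EC it stood at 102 and 162 CPM in WT-Veh, 59.7 and 55.9 CPM in ob/ob-Veh and 60.3 and 92.9 CPM in ob/ob-Rosi, and it fell in ob/ob-Veh, with a log2 change of -1.29 ± 0.31 (SE, edgeR adjusted p = 0.0258). WT-Veh lay above ob/ob-Veh without overlap, and the ob/ob-Rosi libraries lay between them. In iWAT NPVM the levels were 17.2 and 41.4 CPM in WT-Veh, 15.2 and 17.6 CPM in ob/ob-Veh and 32.4 and 48.3 CPM in ob/ob-Rosi. It rose there with rosiglitazone by 1.73 ± 0.48 (SE, edgeR adjusted p = 0.0329), while its change of -1.41 ± 0.50 (SE, edgeR adjusted p = 0.105) from WT-Veh to ob/ob-Veh did not pass, WT-Veh 1 lying within the ob/ob-Veh range. In eWAT NPVM the change with the drug was 0.92 ± 0.30 (SE, edgeR adjusted p = 0.0841). Eci2 was below 0 in ob/ob-Veh in 9 of 10 eWAT classes (median -0.86) and 7 of 7 iWAT classes (median -1.29), under both scalings. The EC call was lost with doublets removed (edgeR adjusted p = 0.0571) and without WT-Veh 2 or either ob/ob-Veh library (adjusted p up to 0.194), and the NPVM call without either ob/ob-Veh library or ob/ob-Rosi 2 (up to 0.218).

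The other auxiliary enzymes gave no call. Decr2, the peroxisomal dienoyl-CoA reductase, had log2 changes above 0 in 6 of 6 eWAT classes in ob/ob-Veh (0.04 to 0.61) and in 5 of 7 iWAT classes, or 7 of 7 with library size scaling. Crat, which moves acetyl groups onto carnitine, had changes on both sides of 0 (-0.35 to 0.65 in eWAT and -1.11 to 0.21 in iWAT). The sum of the 4 auxiliary genes in eWAT EC was 475 and 589 CPM in WT-Veh, 259 and 267 CPM in ob/ob-Veh and 245 and 342 CPM in ob/ob-Rosi. Most of that sum was Ech1.

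In the beta-oxidation cycle itself Scp2 gave 1 call and Acaa1b 1. Scp2 in iWAT LAM stood at 184 and 213 CPM in WT-Veh, 130.2 and 111 CPM in ob/ob-Veh and 224 and 192 CPM in ob/ob-Rosi. These ob/ob-Veh values rest on 32 and 12 UMIs in 58 and 25 cells. The ob/ob-Veh libraries were the lowest, without overlap, and Scp2 rose with rosiglitazone by 1.22 ± 0.34 (SE, edgeR adjusted p = 0.0361), whereas the change in ob/ob-Veh against WT-Veh was -1.12 ± 0.34 (SE, edgeR adjusted p = 0.0526). The rise was no longer called without either ob/ob-Veh or either ob/ob-Rosi library (adjusted p up to 0.176), nor with library size scaling (edgeR adjusted p = 0.134). Scp2 was below 0 in ob/ob-Veh in 10 of 10 eWAT classes (-0.54 to -0.14) and 8 of 8 iWAT classes (-1.12 to -0.20), counts that became 8 and 7 with library size scaling. Another gene on the same strand, Podn, overlaps Scp2, so reads of the shared stretch are uncertain.

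Acaa1b, a copy of the thiolase that ends each round of the cycle, was found at 11 and 42 UMIs (8.58 and 8.37 CPM) in WT-Veh preadipocytes of iWAT and at 0 UMIs in both ob/ob-Veh libraries, with 1.02 and 2.40 CPM in ob/ob-Rosi. Set against a floor of 3 counts per library, the level was at least 7.83-fold lower in ob/ob-Veh (edgeR adjusted p = 0.036). It passed the filter on low counts in 1 of 8 iWAT classes, and there through the WT-Veh libraries alone, so it had to differ to be tested and the call is a description. The WT-Veh libraries were also those with the most adipocyte RNA in this class, as given above, and the part of that RNA was not tested. The call was lost without WT-Veh 2 or either ob/ob-Veh library, with adjusted p up to 0.308. Acaa1a, its main copy, was below 0 in 8 of 10 eWAT and 7 of 7 iWAT classes in ob/ob-Veh (medians -0.36 and -0.65, and 8 and 6 with library size scaling) and above 0 with rosiglitazone in 10 of 10 and 7 of 7 (medians 0.45 and 0.62), with no call.

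Hsd17b4, the bifunctional enzyme for branched and very long acyl-CoA, lay below 0 in ob/ob-Veh in 9 of 9 eWAT classes (median -0.24) and 7 of 7 iWAT classes (median -0.41), or 8 and 6 with library size scaling, and its lowest adjusted p in edgeR was 0.0692, with rosiglitazone in iWAT. Ehhadh, the bifunctional enzyme for straight-chain substrates, was tested in 2 eWAT and 4 iWAT classes and lay above 0 in all of them in ob/ob-Veh (0.27 to 0.40 and 0.61 to 1.28). In iWAT its changes with the drug were -1.86 to -1.36, none of them called. Acox3 had its nearest miss in iWAT NPVM, at 63.7 and 48.9 CPM in WT-Veh, 81.8 and 107 CPM in ob/ob-Veh and 42.3 and 33.7 CPM in ob/ob-Rosi. The ob/ob-Rosi libraries were the lowest there, and the change with rosiglitazone was -0.90 ± 0.30 (SE, edgeR adjusted p = 0.0607). Its change in iWAT PVM was 0.51 ± 0.23 (SE, edgeR adjusted p = 0.2) in ob/ob-Veh.

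Catalase, which breaks down the hydrogen peroxide made by the oxidases, gave no call in any class. Its log2 changes in ob/ob-Veh were -0.36 to 0.35 in eWAT, with 8 of 10 classes above 0, and -0.62 to 0.29 in iWAT, with 3 of 8 above 0, or 6 of 8 with library size scaling. Phyh, the hydroxylase that starts alpha-oxidation of phytanic acid, lay below 0 in 8 of 9 eWAT classes (median -0.46) and 7 of 7 iWAT classes (median -0.42, and 5 of 7 with library size scaling). Amacr, the racemase that readies branched acyl-CoA for the cycle, was tested in 4 eWAT and 5 iWAT classes with changes from -0.44 to 0.51 in eWAT. Neither was called.

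Among the peroxins, Pex6, 1 of the 2 ATPases that pull the receptor Pex5 out of the membrane, gave 4 calls and ran against the direction of Ech1. In iWAT PVM it stood at 16.9 and 16.9 CPM in WT-Veh, 71.8 and 38.5 CPM in ob/ob-Veh and 15.8 and 15.4 CPM in ob/ob-Rosi. In iWAT NPVM the values were 13.8 and 16 CPM in WT-Veh, 74.5 and 37.3 CPM in ob/ob-Veh and 7.67 and 7.37 CPM in ob/ob-Rosi, and in eWAT EC 11.8 and 13.5 CPM in WT-Veh, 42.3 and 28.9 CPM in ob/ob-Veh and 20.1 and 18.8 CPM in ob/ob-Rosi. In all 3 classes both ob/ob-Veh libraries were above every other library, and ob/ob-Veh 1 was the higher of the pair. Pex6 rose in ob/ob-Veh by 1.52 ± 0.34 (SE, edgeR adjusted p = 0.0449) in iWAT PVM and by 1.36 ± 0.35 (SE, edgeR adjusted p = 0.0366) in eWAT EC. With rosiglitazone it fell, with a log2 change of -1.63 ± 0.34 (SE, edgeR adjusted p = 0.0308) in iWAT PVM and -2.50 ± 0.41 (SE, edgeR adjusted p = 0.00822) in iWAT NPVM, while eWAT NPVM gave -1.01 ± 0.34 (SE, edgeR adjusted p = 0.0968). Its log2 change in ob/ob-Veh was above 0 in 8 of 9 eWAT classes (9 with library size scaling, median 0.72) and 7 of 7 iWAT classes (median 1.04). The iWAT PVM call against WT-Veh held only without WT-Veh 1 among the 6 libraries left out in turn (adjusted p up to 0.325), the eWAT EC call was lost without either WT-Veh library or ob/ob-Veh 1 (up to 0.22), and the calls with the drug were lost without either ob/ob-Veh library or ob/ob-Rosi 2, in PVM also without ob/ob-Rosi 1 (up to 0.279). Without ob/ob-Veh 1 the log2 changes of Pex6 shrank to 0.93 in ob/ob-Veh and -1.04 with rosiglitazone in iWAT PVM, to -1.75 in iWAT NPVM and to 1.07 in eWAT EC. The eWAT EC call was also lost with DESeq2 (adjusted p = 0.0755) and with doublets removed (edgeR adjusted p = 0.0919). A same-strand gene model, Gm26904, overlaps Pex6, so its reads could be split or dropped in counting.

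**Figure D5:**
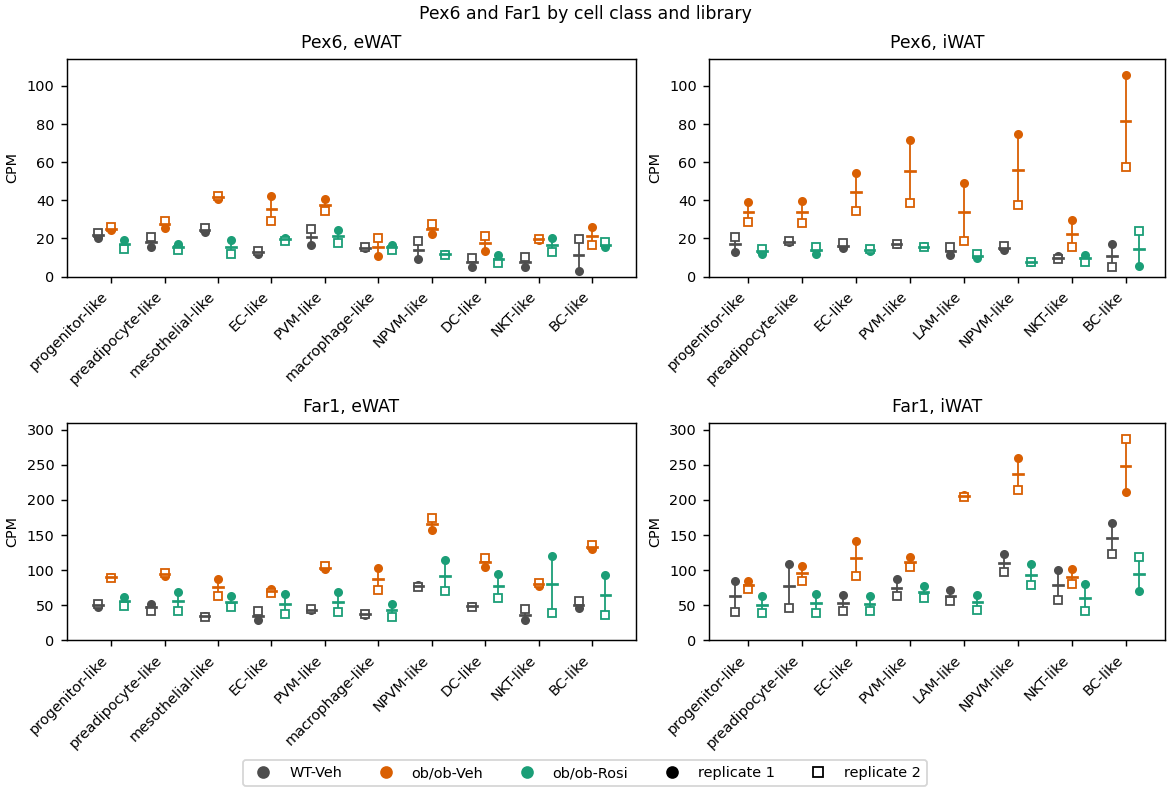
Level of Pex6 and Far1 in CPM in each class and library of eWAT and iWAT, with a filled circle for replicate 1, an open square for replicate 2 and a short bar for the mean of a group. In iWAT LAM the Far1 levels of ob/ob-Veh (208 and 204 CPM) lay above the 4 other libraries, and in iWAT PVM the Pex6 level of ob/ob-Veh 1 (71.8 CPM) was the highest.

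Pex13, part of the docking complex for import receptors, was called in 1 class. In iWAT LAM it stood at 48 and 51.2 CPM in WT-Veh, 16.3 and 18.5 CPM in ob/ob-Veh and 44.1 and 33.5 CPM in ob/ob-Rosi, lowest in both ob/ob-Veh libraries, and it fell there, with a log2 change of -1.96 ± 0.50 (SE, edgeR adjusted p = 0.03). The ob/ob-Veh values rest on 4 and 2 UMIs in 58 and 25 cells. The change with rosiglitazone was 1.64 ± 0.51 (SE, edgeR adjusted p = 0.0567). The fall was not called without either ob/ob-Veh library (adjusted p up to 0.229) or with library size scaling (edgeR adjusted p = 0.0718). Pex14, its partner in docking, was not called, and its changes in ob/ob-Veh were below 0 in 7 of 8 eWAT and 7 of 7 iWAT classes, or 5 and 5 with library size scaling. Pex11a, which elongates peroxisomes before they divide, was called in eWAT EC from 69 UMIs in all, at 15.4 and 12.2 CPM in WT-Veh, 4.14 and 2.38 CPM in ob/ob-Veh and 1.95 and 3.6 CPM in ob/ob-Rosi. Both WT-Veh libraries were above the 4 others, and they alone carried Pex11a past the filter on low counts in this class, so the call is a description. The log2 change was -2.21 ± 0.58 (SE, edgeR adjusted p = 0.0385) in ob/ob-Veh, with a change of 0.05 with rosiglitazone (edgeR adjusted p = 0.977). The call was lost without either WT-Veh or either ob/ob-Veh library (adjusted p up to 0.274), with DESeq2 (adjusted p = 0.0914) and with doublets removed (edgeR adjusted p = 0.161).

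The remaining peroxins gave no call. Pex5, the receptor for most matrix enzymes, had log2 changes above 0 in ob/ob-Veh in 9 of 9 eWAT classes (0.05 to 1.14) and in 3 of 7 in iWAT, and Pex7, the other import receptor, lay between -0.49 and 0.23 in eWAT. Pex26, the membrane anchor of Pex6, lay above 0 in 3 of 3 eWAT and 5 of 5 iWAT classes (0.10 to 0.34 and 0.42 to 1.17), with changes of the opposite sign with rosiglitazone (-1.10 to -0.17 and -2.04 to -0.42). The membrane builders were Pex3 (-0.40 to 0.11 in eWAT), Pex16 (-0.75 to 0.18, 8 of 9 classes below 0 and 7 of 9 with library size scaling) and Pex19 (-0.33 to 0.40). The ring ligases Pex2 and Pex10 gave -0.29 to 0.45 and -1.15 to 0.04 in eWAT, and Pex11g, a relative of Pex11a, -0.51 to 0.16. Their lowest adjusted p in edgeR over both comparisons and depots was 0.107, for Pex11g.

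Among the genes of ether lipid synthesis Far1 gave 3 calls. Far1 in iWAT LAM stood at 71.1 and 55.8 CPM in WT-Veh, 208 and 204 CPM in ob/ob-Veh and 65 and 43.3 CPM in ob/ob-Rosi. These ob/ob-Veh values rest on 51 and 22 UMIs in 58 and 25 cells. In eWAT PVM the values were 43.3 and 44.2 CPM in WT-Veh, 101 and 106 CPM in ob/ob-Veh and 69 and 40.9 CPM in ob/ob-Rosi. The ob/ob-Veh libraries were the highest in both classes, without overlap. Far1 rose in ob/ob-Veh by 1.28 ± 0.34 (SE, edgeR adjusted p = 0.0338) in iWAT LAM and 1.14 ± 0.25 (SE, edgeR adjusted p = 0.041) in eWAT PVM, and it fell with rosiglitazone, with a log2 change of -1.46 ± 0.34 (SE, edgeR adjusted p = 0.0181) in iWAT LAM. In eWAT NPVM, at 78.6 and 76.7 CPM in WT-Veh, 157 and 175 CPM in ob/ob-Veh and 114 and 69.9 CPM in ob/ob-Rosi, the change with the drug was -0.78 ± 0.27 (SE, edgeR adjusted p = 0.102). Over the classes Far1 was above 0 in ob/ob-Veh in 10 of 10 in eWAT (median 0.95) and 7 of 8 in iWAT (8 with library size scaling, median 0.46), and below 0 with rosiglitazone in 10 of 10 and 8 of 8. The call in iWAT LAM against WT-Veh held only without WT-Veh 1 among the 6 libraries left out in turn (adjusted p up to 0.269), the eWAT PVM call was lost without either WT-Veh or either ob/ob-Veh library (up to 0.204), and the fall in iWAT LAM without either ob/ob-Veh library or ob/ob-Rosi 2 (up to 0.207).

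Agps, which exchanges the acyl chain for the alcohol that Far1 supplies, had log2 changes above 0 in ob/ob-Veh in 9 of 9 eWAT classes (0.25 to 0.88) and 7 of 7 iWAT classes (0.24 to 0.74) and below 0 with rosiglitazone in the same numbers (-0.88 to -0.15 and -1.03 to -0.43). None was called, the lowest adjusted p in edgeR being 0.089, with rosiglitazone in iWAT. Gnpat, the acyltransferase of the first step, lay above 0 in 8 of 10 eWAT classes (9 with library size scaling) but in 1 of 7 iWAT classes, or 3 of 7 with library size scaling. The sum of the 3 genes in iWAT LAM was 134 and 103 CPM in WT-Veh, 305 and 297 CPM in ob/ob-Veh and 126 and 81.9 CPM in ob/ob-Rosi, and in eWAT PVM 96.3 and 87.2, 156 and 161, and 136 and 76.9 CPM. In both classes the ob/ob-Veh libraries were the highest, and WT-Veh and ob/ob-Rosi overlapped.

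Of the membrane proteins, Abcd2 was called once. In eWAT preadipocytes it stood at 13.4 and 19.5 CPM in WT-Veh, 28.9 and 33.3 CPM in ob/ob-Veh and 15 and 13.3 CPM in ob/ob-Rosi, highest in ob/ob-Veh without overlap. Abcd2 fell with rosiglitazone, with a log2 change of -1.04 ± 0.26 (SE, edgeR adjusted p = 0.0334), and the change in ob/ob-Veh was 0.81 ± 0.26 (SE, edgeR adjusted p = 0.0909). In this class adipocyte RNA was 34.5 to 126 CPM in WT-Veh, 78.9 to 117 CPM in ob/ob-Veh and 20.1 to 23.3 CPM in ob/ob-Rosi. The dissociation-response sum was 8004 to 10077, 11365 to 11509 and 6571 to 8586 CPM in the same order. The part of either was not tested. The ob/ob-Veh cells of this class came mainly from a cluster of their own, and the fall was lost without either ob/ob-Veh library or ob/ob-Rosi 2 (adjusted p up to 0.227). In eWAT NKT cells the change of Abcd2 with the drug was 1.83 ± 0.63 (SE, edgeR adjusted p = 0.112). Abcd3 lay on both sides of 0 (-0.62 to 0.15 in eWAT and -0.14 to 0.40 in iWAT). Abcd4 lay above 0 in ob/ob-Veh in 7 of 7 iWAT classes (0.19 to 0.63) and in 4 of 8 eWAT classes. Pxmp2 lay below 0 in 5 of 5 classes of each depot (medians -0.81 and -0.93), and Pxmp4 in 7 of 9 and 6 of 7, or 7 and 4 with library size scaling. None of these 4 was called.

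Treated obese mice were last set against lean vehicle mice. With edgeR 0 of 265 member pairs were called in eWAT, against 0.0523% of all pairs, and 0 of 224 in iWAT, against 0.0262%. At an unadjusted p under 0.05 there were 8 member pairs in eWAT (3.02%, against 3.10% of all pairs) and 11 in iWAT (4.91%, against 4.11%). DESeq2 called 1 and 0, edgeR without a filter on low counts 3 and 2, and 3 were called in iWAT without WT-Veh 1. Blocking on replicate number, which the labels do not tie to an animal, gave 3 calls in eWAT. The member median log2 change was -0.002 in eWAT and -0.14 in iWAT, or 0.002 and -0.16 with library size scaling. Class medians over all genes ran from -0.025 to 0.023 and from -0.035 to 0.010. In iWAT 150 member pairs lay below 0 and 74 above, and in EC 31 below and 2 above. In eWAT 136 lay below 0 and 129 above. The lowest adjusted p-values in eWAT were in EC. Pxmp4 stood there at 43.8 and 59.5 CPM in WT-Veh, 33.1 and 34.1 CPM in ob/ob-Veh and 22.7 and 22.7 CPM in ob/ob-Rosi, a change of -1.23 ± 0.28 (SE, edgeR adjusted p = 0.077) in ob/ob-Rosi against WT-Veh, with both ob/ob-Rosi libraries below the others. Ech1 and Pex11a of the same class, whose values are given above, gave -1.05 ± 0.26 (SE, edgeR adjusted p = 0.107) and -2.16 ± 0.55 (SE, edgeR adjusted p = 0.114). Pex11a passed the filter on low counts in this class through WT-Veh alone, so its change is a description. In iWAT EC Ech1 and Pex11a gave -1.04 ± 0.43 (SE, edgeR adjusted p = 0.617) and -1.83 ± 0.63 (SE, edgeR adjusted p = 0.423). A p that misses the threshold here does not show that the groups were alike. On the higher side the lowest adjusted p-values belonged to Phyh, Pex6 and Far1 in eWAT EC and to Cat and Ech1 in iWAT BC. Their log2 changes were 0.74, 0.57, 0.44, 0.45 and 0.38, and the edgeR adjusted p ran from 0.782 to 0.995. The largest fitted change upward was 1.39 ± 0.49 (SE, edgeR adjusted p = 1) for Pex5 in eWAT NKT.

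Whether the effects differed between depots was tested in the 7 classes found in both, as the iWAT effect minus the eWAT effect in 1 fit of 12 libraries. With edgeR no member pair of 200 was called for ob/ob-Veh against WT-Veh, against 0.324% of all pairs, and none of 200 for ob/ob-Rosi against ob/ob-Veh, against 0.173%. At an unadjusted p under 0.05 there were 5 member pairs (2.5%, against 8.15% of all pairs) and 10 (5.0%, against 8.56%). DESeq2 called 0 in both, and edgeR without a filter on low counts called 1 and 1. For Ech1 the difference was -1.28 ± 0.54 (SE, edgeR adjusted p = 0.516) in preadipocytes in ob/ob-Veh and 1.19 ± 0.48 (SE, edgeR adjusted p = 0.33) in NPVM with rosiglitazone. For Pex6 in NPVM it was -1.41 ± 0.53 (SE, edgeR adjusted p = 0.288) with rosiglitazone, and for Abcd2 in preadipocytes 0.93 ± 0.33 (SE, edgeR adjusted p = 0.351). The values nearest a call on the higher side in ob/ob-Veh were 1.04 ± 0.37 (SE, edgeR adjusted p = 0.367) for Abcd4 in preadipocytes and 0.81 ± 0.33 (SE, edgeR adjusted p = 0.398) for Abcd3 in PVM. The calls in iWAT LAM, among them those of Pex13 and Scp2, were outside this test because LAM-like cells of eWAT were too few.

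For comparison, 34 other genes of the peroxisome and 19 genes of mitochondrial beta-oxidation, the route for shorter fatty acids in which Ech1 and Eci2 also take part, were read in the same fits. Of the other peroxisome genes 30 were tested: in eWAT 1 pair was higher and 6 lower of 215 in ob/ob-Veh and 4 higher and 2 lower with rosiglitazone, and in iWAT 0 higher and 8 lower of 192, and 10 higher and 0 lower. In ob/ob-Veh the shares over all pairs were 1.72% higher and 2.2% lower in eWAT and 1.72% higher and 1.79% lower in iWAT. With rosiglitazone they were 2.05% higher and 1.54% lower in eWAT and 3.28% higher and 2.43% lower in iWAT. In ob/ob-Rosi against WT-Veh 0 were higher and 1 lower in eWAT and 0 and 2 in iWAT, with Ephx2 in iWAT EC at -3.56 ± 0.51 (SE, edgeR adjusted p = 0.0455). Prdx5, a peroxidase of mitochondria and peroxisomes, fell in ob/ob-Veh, with a log2 change of -2.28 ± 0.51 (SE, edgeR adjusted p = 0.0304) in iWAT NPVM and rose with the drug by 2.90 ± 0.52 (SE, edgeR adjusted p = 0.00934). Ephx2, the soluble epoxide hydrolase, fell in iWAT preadipocytes, with a log2 change of -3.36 ± 0.32 (SE, edgeR adjusted p = 0.00317), and the iWAT effect minus that in eWAT was -2.71 (edgeR adjusted p = 0.0313). Of the mitochondrial genes 18 were tested, with 0 pairs higher and 5 lower of 171 in eWAT and 0 and 4 of 129 in iWAT in ob/ob-Veh, and 2 and 11 higher with none lower with rosiglitazone. In ob/ob-Rosi against WT-Veh 1 mitochondrial pair was lower in eWAT, Hadhb in EC at -1.29 ± 0.26 (SE, edgeR adjusted p = 0.0433), and none was called in iWAT. Hadha, of the trifunctional protein, was -1.77 ± 0.39 (SE, edgeR adjusted p = 0.0157) and 1.75 ± 0.39 (SE, edgeR adjusted p = 0.0149) in iWAT LAM in the 2 comparisons. Median log2 changes in ob/ob-Veh were -0.24 and -0.43 for the other peroxisome genes and -0.31 and -0.42 for the mitochondrial genes in eWAT and iWAT, beside -0.09 and -0.19 for the 34 members.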

How the data were processed

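The authors deposited raw UMI counts per gene and cell from 10x 3′ libraries, made with bcl2fastq 2.19.1.403 and Cell Ranger 3.0.2 against mm10. Whether intronic reads were counted is not given in the sources used here. Cells with 700 to 22000 UMIs, 200 to 6000 genes and under 25% mitochondrial UMIs were kept. Each depot was clustered without integration with scanpy 1.11.5 (2000 variable genes without the genes reported, 25 components, 20 neighbours, Leiden resolution 1), and a cluster was named "-like" when at least 3 markers, and 40% of a marker list, were at least 2-fold higher (with 10 CPM added) and detected in 10% of its cells. These 2 limits of the naming rule were set after the clusters were seen. Doublets were scored with Scrublet and kept in the reported values.

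Counts were summed per library and class and tested with edgeR 4.0.16 (TMM, filterByExpr, quasi-likelihood) in R 4.3.3, with DESeq2 1.42.0 as an alternative, and fits were tested on simulated data, where most of the smaller changes went uncalled. CPM values use library size; log2 changes use TMM. All 34 members passed the count filter in at least 1 class, 8 of them in every eWAT class and 5 in every iWAT class; pairs that did not pass have no test. Members called in a class were given with values per library. Per comparison, most of the 3 members with the lowest adjusted p in each direction were named too, some without values per library. The members and lists were chosen with earlier results of these data known. One gene of the companion list is not reported here. The labels call the 2 libraries of a group biological replicates and do not say whether eWAT and iWAT libraries share animals. Alternatives were DESeq2, other scalings and filters, doublet removal, a finer clustering, undivided progenitors, a replicate block and leaving out each library. The precision of a level is limited by UMIs: class sums with few cells, such as iWAT LAM of ob/ob-Veh, rest on few counts.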

Additional observations from a re-analysis of the deposited data

How the results depend on the processing

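No member call changed direction under any alternative run. For the 27 called pairs, alternatives other than leaving out a library kept the call 225 times and lost it 7 times (Pex11a and Pex6 in eWAT EC with DESeq2 and with doublets removed, Eci2 in eWAT EC with doublets removed, and Pex13 and Scp2 in iWAT LAM with library size scaling), and leaving out 1 library kept it 76 times and lost it 86 times. In that last case a group with 1 library left was taken to have the same spread as the rest. Pairs with no test in an alternative are in neither the kept nor the lost calls. These were every iWAT LAM call at Leiden resolution 2 and the preadipocyte calls of both depots with undivided progenitors. Pex11a in eWAT EC and Acaa1b had no test under the 10% detection filter. Undivided progenitors changed the counts of the progenitor and preadipocyte classes only. Calls in the other classes were kept there by construction and are among the 225. Counts of called member pairs moved as follows. Without a filter on low counts they were 17 in eWAT and 19 in iWAT for ob/ob-Veh against WT-Veh, 7 and 16 for the drug in ob/ob mice, 3 and 2 for ob/ob-Rosi against WT-Veh, and 1 and 1 for the depot differences. DESeq2 gave 4 in eWAT and 13 in iWAT for the drug in ob/ob mice and 1 in eWAT for ob/ob-Rosi against WT-Veh. A filter on 10% detection gave 5 in eWAT and 14 in iWAT for the drug in ob/ob mice. Leiden resolution 2 gave 5 in eWAT for that comparison and 5 in iWAT for ob/ob-Veh against WT-Veh. Undivided adipocyte progenitors gave 1 in eWAT for the drug in ob/ob mice. At resolution 2 the iWAT LAM calls had no test, and with undivided progenitors the preadipocyte calls had none, as that class was merged. The cause of the other moves was not tested. With doublets removed iWAT BC held 19 cells in 1 library and was not tested.

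With 1 library left out, the counts ran from 0 to 18 in eWAT for ob/ob-Veh against WT-Veh (0 without ob/ob-Veh 1, 1 without ob/ob-Veh 2, 3 and 2 without WT-Veh 1 and 2, 18 and 16 without ob/ob-Rosi 1 and 2) and from 0 to 16 for ob/ob-Rosi against ob/ob-Veh (0 without either ob/ob-Veh library or ob/ob-Rosi 2, 16 without ob/ob-Rosi 1, 3 without either WT-Veh library). In iWAT they ran from 0 to 25 for ob/ob-Veh against WT-Veh (0 without either ob/ob-Veh library, 4 without WT-Veh 2, 25 without WT-Veh 1) and from 0 to 23 for ob/ob-Rosi against ob/ob-Veh (0 without either ob/ob-Veh library or ob/ob-Rosi 2, 23 and 21 without WT-Veh 1 and 2). For ob/ob-Rosi against WT-Veh they were 0 in eWAT and 0 to 3 in iWAT (3 without WT-Veh 1), and for the depot differences 0.

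Replicate numbers in the labels do not say that same-numbered libraries share an animal, litter or day. With the number as a replicate block, 17 and 13 member pairs were called in eWAT and iWAT for ob/ob-Veh against WT-Veh, 8 and 15 for the drug in ob/ob mice, and 3 in eWAT for ob/ob-Rosi against WT-Veh. Deviations of same-numbered libraries correlated at -0.087 to 0.314 across genes in eWAT, and in iWAT at 0.196 to 0.612 between WT-Veh and ob/ob-Rosi and at -0.103 to 0.130 for pairs with ob/ob-Veh. Depth limits Acaa1b, Ehhadh, Pex10, Pex26 and Amacr, which lay under 5 CPM on average in both depots, and Pxmp2 and Pex11g, which did in iWAT.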
